A study of Homo sapiens with 9 samples.

Results

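Parental SET2 cells were profiled by bulk RNA-seq in 3 libraries, WT 1 to WT 3, and the transcriptome of this unedited line was described on its own, without comparison with other cells. The 3 libraries were chosen by their label, wild-type SET2, out of 9 libraries in the series; the other 6 came from the DYRK1A knockout (KO) clones 11H1 and 14B5 and were not used for levels. SET2 is an established JAK2 mutant megakaryoblastic leukemia line, labelled as acute myeloid leukemia (AML) that followed a myeloproliferative neoplasm (MPN), and the WT cells carried no edit and received no treatment. The KO clones each grew from a single sorted cell, whereas the WT cells were the uncloned line, so an average over them may hold cells of different states. The labels do not say that the 3 libraries came from separate cultures, so the spread between them may be technical. In bulk RNA, fewer cells of a type and less RNA per cell cannot be told apart.

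Megakaryocytes, the cells that shed platelets, and erythroid cells, which make hemoglobin, arise from a shared progenitor, and both lineages use the transcription factors GATA1, TAL1 and NFE2. Erythroid maturation is driven by erythropoietin through its receptor EPOR, which signals through the kinase JAK2 to STAT5. Mast cells and basophils also depend on GATA2 and store histamine.

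Library totals were 50311945, 47482350 and 40995338 expected counts. Levels are CPM (counts per 1e+06 of scaled library size), and each mean ± SD is over the 3 libraries (n = 3). A count of 0 in a library allows up to 3 counts, or 0.0609, 0.0627 and 0.0722 CPM in WT 1, WT 2 and WT 3; this floor covers counting error only. A gene was counted as expressed at 1 CPM or more in every library, which 13386 of 60662 genes met. Of 20004 protein-coding genes, 11873 (59.4%) were expressed and 3615 had no count in any library. Mean levels reached 1000 CPM in 79 genes and lay between 100 and 1000 CPM in a further 2184. Because CPM grows with transcript length, genes were compared with each other only as CPM per kb of exon, and the expressed protein-coding genes had a median of 6.58 CPM per kb.

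Ranked by mean CPM, that is by the share of counts a gene takes, the line was led by housekeeping, mitochondrial and fetal globin genes. EEF1A1, a translation elongation factor, ranked first with 13052, 12688 and 13052 CPM in WT 1 to WT 3. HBG2, which encodes a gamma-globin chain of fetal hemoglobin, ranked second with 12967, 12790 and 11187 CPM. Also among the 20 highest were 7 mitochondrially encoded genes (MT-CO1, MT-RNR2, MT-ND4, MT-CO3, MT-CO2, MT-ND2 and MT-ATP6), the globin-region gene AC104389.5, the cytoskeletal genes ACTB and TUBA1B, the glycolytic enzyme GAPDH, the chaperones HSPA8 and HSP90AB1, B2M, and the ribosomal protein genes RPLP0, RPL4 and RPL13A. The 10 highest genes took 7.12% ± 0.939 of all counts. Among further members of the lineage lists used below, TFRC ranked 27th, HDC 48th, HBA1 53rd and ITGA2B 88th. ITGA4, an integrin gene in none of those lists, ranked 64th. DYRK1A, the kinase that the study removed in its KO clones, was at 197, 195 and 216 CPM, a mean of 203 ± 11.9 CPM (7.62 CPM per kb), and ranked 911th.

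**Figure D1:**
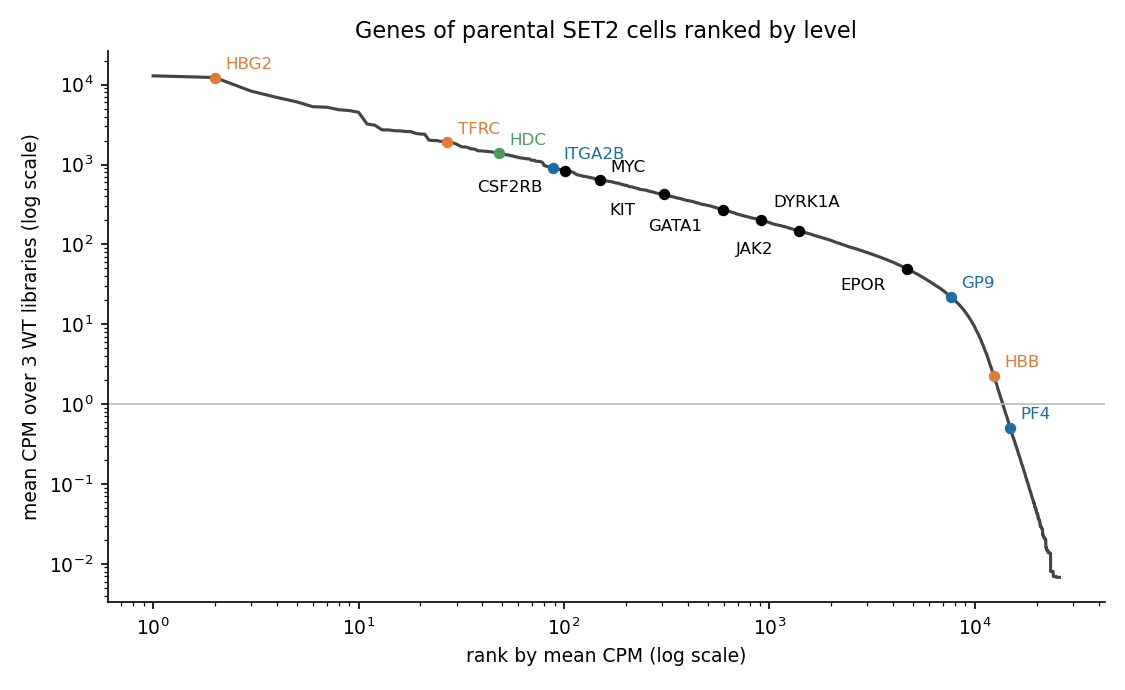
Genes with a count in the parental libraries, ranked by mean CPM over the 3 WT libraries, both axes on log scales, with named genes as points and the line at 1 CPM. HBG2 lies at the top of the curve, ITGA2B at 915 CPM, DYRK1A at 203 CPM, and HBB and PF4 at 2.27 and 0.507 CPM.

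The label "megakaryoblastic" was checked against lists of lineage genes. Of 40 megakaryocyte genes, 30 were expressed (75%), and of 39 erythroid genes, 35 (89.7%). Fewer genes were expressed of the mast cell, basophil and eosinophil list (10 of 16), the stem and progenitor list (18 of 27), the endothelial list (10 of 15), the granulocyte and monocyte list (11 of 29), the B lymphoid list (7 of 18), the T and NK lymphoid list (7 of 22), the stromal and epithelial list (5 of 13) and the dendritic list (2 of 12). All protein-coding genes stood at 59.4% by the same limit. The median over all members was 19.8 CPM per kb for the erythroid list, 3.79 for the megakaryocyte list, 2.68 for the stem list and 1.01 for the mast cell list, and below 1 CPM per kb for the other lists. Summed over members, the megakaryocyte list held 2822 ± 15.9 CPM and the erythroid list 20430 ± 1036 CPM, most of it HBG2.

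**Figure D2:**
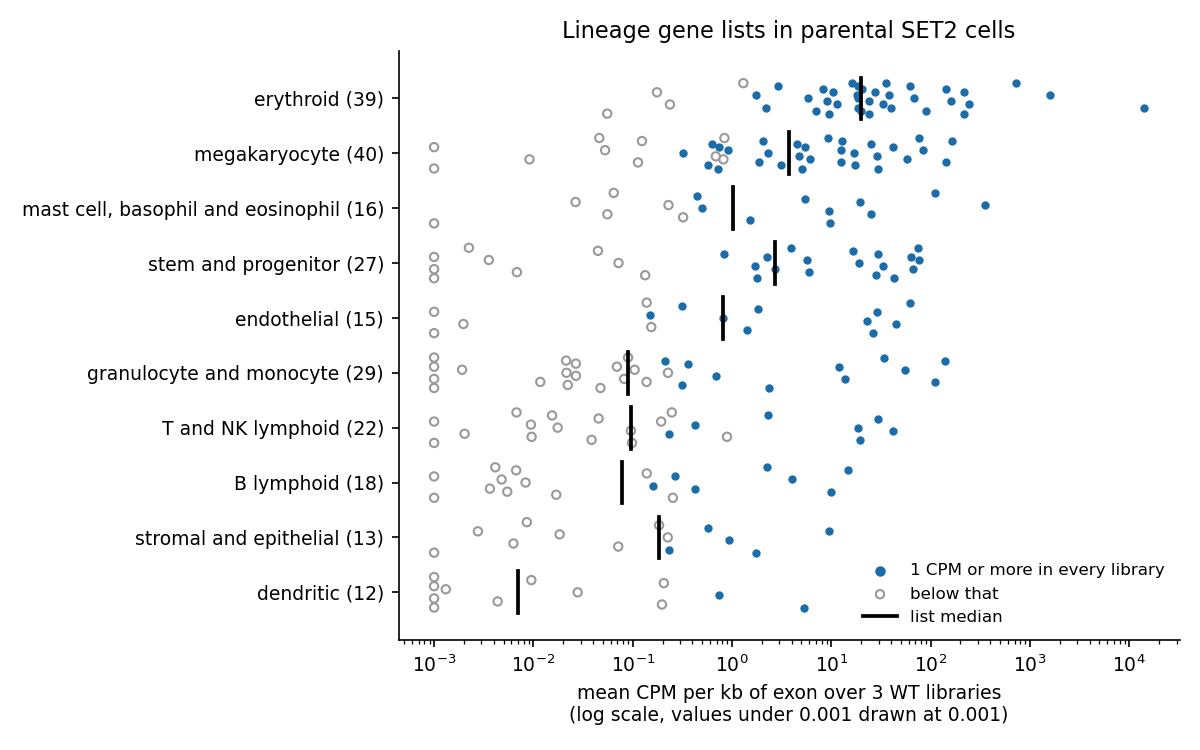
Mean CPM per kb of exon (log scale) for each member of 10 lineage lists over the 3 WT libraries, with the number of members in parentheses. Filled points were at 1 CPM or more in every library and bars mark list medians; the erythroid list is centred at 19.8 and the megakaryocyte list at 3.79 CPM per kb.

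Of the surface receptors that carry platelet adhesion, ITGA2B was the highest per kb of exon. ITGA2B (ENSG00000005961; chr17:44372180-44389505 on GRCh38, minus strand), the alpha IIb chain of the fibrinogen receptor, was at 926, 917 and 902 CPM (915 ± 12.03), the closest agreement of the defining genes of this list. ITGB3, its beta chain, was at 49.7, 53.4 and 60.6 CPM. Per kb of exon the alpha chain stood at 165 ± 2.17 and the beta chain at 12.4 ± 1.27 CPM, with ranges far apart.

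The chains of the von Willebrand factor receptor followed. GP1BA, the ligand-binding chain, was at 42.4, 44.0 and 44.3 CPM, a narrow range with no library apart. GP9 was at 20.2, 24.4 and 21.8 CPM, and per kb it stood above GP1BA (24.9 against 17.4 CPM per kb). GP5, which associates with the complex, averaged 15.8 CPM, and GP6, a collagen receptor, 5.57 CPM. GP1BB, the remaining chain, gave 1.38, 1.003 and 0.818 CPM, so it fell below 1 CPM in WT 3. All exons of GP1BB are shared with the read-through gene SEPT5-GP1BB (2.52 CPM), and how the counts divide between them is uncertain.

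Other members sat between these levels. MPIG6B, an inhibitory receptor of megakaryocytes, was at 240, 239 and 255 CPM, highest in WT 3. PLEK, a protein kinase C substrate of platelets, averaged 190 ± 9.22 CPM, and PTGS1, the cyclooxygenase that starts thromboxane synthesis, 168 ± 3.81 CPM. TUBB1, the beta-tubulin of the platelet marginal band, was at 15.9, 18.1 and 18.8 CPM, and 34.0% of its exons lie opposite ATP5F1E (194 CPM) on the other strand. In order per kb, ITGA2B was followed by the transcription factor NFE2, MPIG6B, SELPLG, PLEK and CMTM5, each with a range apart from the next. LY6G6F varied most among the expressed members, from 1.73 to 2.82 CPM, and shares 87.5% of its exon bases with a read-through gene.

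The members of the megakaryocyte list below 1 CPM included platelet chemokines and receptors. PF4, the chemokine platelet factor 4, gave 0.508, 0.460 and 0.554 CPM, above the floor of a count of 0 in each library and under 1 CPM in all. PPBP, the neighbouring chemokine, gave 0.792, 0.460 and 0.505 CPM, highest in WT 1. VWF, von Willebrand factor, was between 0.0627 and 0.120 CPM, the lowest of them at the floor. CLEC1B averaged 0.455 CPM and TREML1 0.0781 CPM, while SELP, a granule membrane protein, was expressed at 2.55 CPM. The ADP receptor P2RY12 and the lipoxygenase ALOX12 had no count in any library. P2RY1, the other platelet ADP receptor, averaged 84.1 CPM.

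Globin counts lay almost wholly on gamma and alpha chains. HBG2 (ENSG00000196565), at 12315 ± 981 CPM and 14171 CPM per kb, was lowest in WT 3 and had the highest level per kb of all protein-coding genes. AC104389.5, which shares 66.5% of its exon bases with HBG2 and 33.5% with HBG1, was at 4901, 5034 and 4316 CPM, so the division of reads among these near-identical genes is uncertain. HBG1 averaged 30.5 ± 2.98 CPM. Summed over the 3 genes, the gamma-globin region stood at 17902, 17855 and 15531 CPM, again lowest in WT 3. Of the counts on HBG1, HBG2, HBE1, HBD and HBB, the gamma genes held 99.2% (99.2% to 99.3% across libraries).

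HBB, the adult beta chain that replaces gamma-globin after birth, was at 2.01, 2.53 and 2.26 CPM, and HBD averaged 7.42 CPM. The embryonic chains HBE1 and HBZ averaged 85.8 and 51.7 CPM, and 81.3% of the exon bases of HBE1 are shared with AC104389.4 (22.9 CPM). HBA1 and HBA2, the alpha chains, whose coding sequences are alike, gave a summed 1884, 2126 and 1773 CPM. AHSP, the chaperone that holds free alpha-globin, gave 0.853, 0.689 and 0.650 CPM and was the only 1 of 12 defining erythroid genes below 1 CPM. HBQ1 varied most in the list, from 3.18 CPM in WT 3 to 6.22 CPM in WT 2.

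Iron uptake, membrane and heme genes of red cells were also present. TFRC, the transferrin receptor, was at 1856, 1831 and 2054 CPM, highest in WT 3. RHAG, the Rh-associated glycoprotein, was at 434, 427 and 439 CPM, a spread of 1.42% of the mean. CA1, a carbonic anhydrase of red cells, averaged 586 ± 11.3 CPM, and ANK1, the ankyrin that ties the membrane to spectrin, 428 ± 27.8 CPM. ALAS2, the erythroid enzyme that begins heme synthesis, was at 59.4, 60.9 and 56.1 CPM. The anion exchanger SLC4A1, a late erythroid gene, was at 10.1, 11.5 and 12.1 CPM. Per kb the order after HBG2, HBA1 and HBA2 was TFRC, KLF1, BLVRB, RHAG and CA1; the ranges of TFRC, KLF1 and BLVRB overlapped, and RHAG and CA1 stood apart from each other and from those above.

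Of the mast cell, basophil and eosinophil list, 62.5% was expressed, close to the 59.4% of all protein-coding genes, with levels that differed widely between members. HDC (ENSG00000140287; chr15:50241947-50266026 on GRCh38, minus strand), the enzyme that makes histamine, was at 1487, 1357 and 1333 CPM (1392 ± 82.8) and at 352 CPM per kb. FCER1A, the alpha chain of the high-affinity IgE receptor, was at 133, 130 and 128 CPM. MS4A2, its beta chain, was at 2.01, 2.13 and 1.73 CPM, and FCER1G, the shared gamma chain, averaged 33.0 CPM. PRG2, the eosinophil major basic protein, was at 49.9, 48.9 and 39.7 CPM, lowest in WT 3. CPA3, a mast cell carboxypeptidase, averaged 17.4 CPM, and the tryptases TPSB2 and TPSAB1, which are near-identical copies, 9.50 and 2.31 CPM. Chymase (CMA1) had no count, and the eosinophil genes EPX and CLC averaged 0.174 and 0.0353 CPM.

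Of 29 granulocyte and monocyte genes, 11 were expressed, 3 of them at 100 CPM or more, and 10 had at most 3 counts in each library. MS4A3, a membrane protein of granulocyte and basophil precursors, was at 298, 293 and 290 CPM, and LYZ, lysozyme, at 198, 194 and 195 CPM. CD68 averaged 121 CPM, with 81.7% of its exon bases shared with AC016876.2 (49.3 CPM). The defining granule and monocyte genes were low: MPO averaged 1.29 CPM, ELANE 0.0228, CTSG 0.0296, PRTN3 0.120 and CD14 0.0505 CPM. S100A8 had no count in any library and S100A9 had 1 count in WT 1.

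Lymphoid genes were expressed in part, with 0 of 7 defining genes of the T and NK list and 3 of 7 of the B list. CD4, also a monocyte surface protein, averaged 191 ± 3.05 CPM, CD7 81.0 CPM and perforin (PRF1) 47.3 CPM, yet no defining T cell gene reached 1 CPM in every library, CD3D for example with 0.827 CPM. CD79A and CD79B, signal chains of the B cell receptor, averaged 22.1 and 20.5 CPM, whereas the B cell factor EBF1 averaged 0.0296 CPM. PAX5 was at 1.54, 1.40 and 1.59 CPM. IGHM gave 1.38 CPM in WT 1 against 0.0209 and 0.0241 CPM in WT 2 and WT 3. Of endothelial genes, PECAM1 (347 CPM), EGFL7 (157 CPM) and TIE1 (153 CPM) were expressed, while the angiopoietin receptor TEK and the factor SOX17 had no count.

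**Figure D3:**
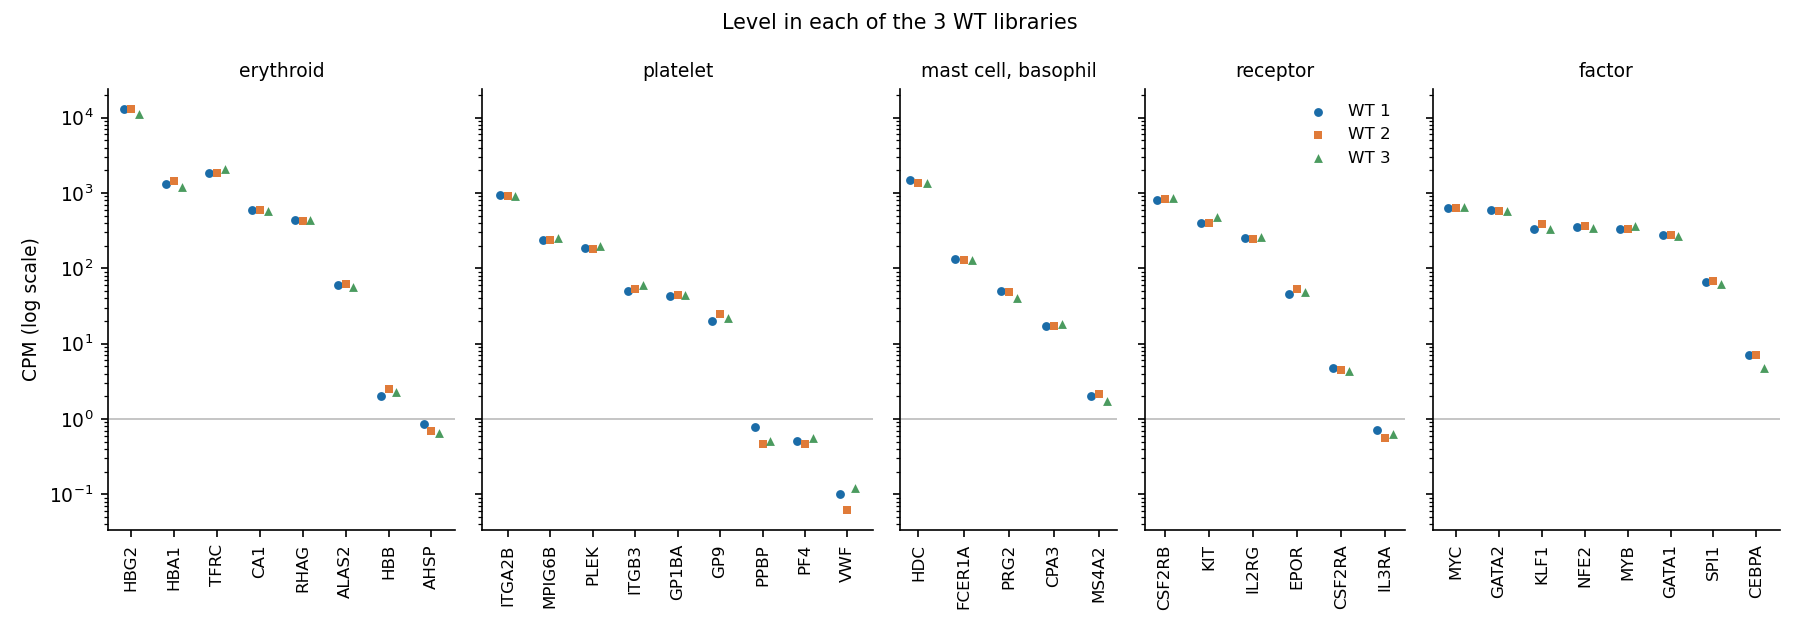
CPM (log scale) of selected erythroid, platelet, mast cell and basophil, receptor and transcription factor genes in WT 1 (circles), WT 2 (squares) and WT 3 (triangles), with the line at 1 CPM. Levels run from HBG2 at 11187 to 12967 CPM down to VWF at 0.0627 to 0.120 CPM.

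To show the sequence next to these levels, the 250 bases before the start of 5 genes that stand for the erythroid, megakaryocytic and mast cell groups were taken from RefSeq (GRCh38.p14). They are KLF1 (chr19:12887202-12887451, minus strand), RHAG (chr6:49636840-49637089, minus strand), ITGA2B (chr17:44389650-44389899, minus strand), HDC (chr15:50265727-50265976, minus strand) and FCER1A (chr1:159302086-159302335, plus strand). Each is written 5′ to 3′ on the strand of its gene, and capitals mark the 6-base word AGATAA, also with T as its first letter or G as its last, on either strand, a word that GATA factors are known to bind.
KLF1: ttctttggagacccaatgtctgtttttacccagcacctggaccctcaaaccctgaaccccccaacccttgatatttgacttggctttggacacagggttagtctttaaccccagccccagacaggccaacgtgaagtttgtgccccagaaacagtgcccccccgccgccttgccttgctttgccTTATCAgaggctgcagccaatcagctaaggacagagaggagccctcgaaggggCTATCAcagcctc
RHAG: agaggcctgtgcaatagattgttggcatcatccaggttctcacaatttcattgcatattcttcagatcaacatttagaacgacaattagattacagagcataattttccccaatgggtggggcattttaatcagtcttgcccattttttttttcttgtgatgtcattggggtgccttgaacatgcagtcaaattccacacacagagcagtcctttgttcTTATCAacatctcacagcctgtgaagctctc
ITGA2B: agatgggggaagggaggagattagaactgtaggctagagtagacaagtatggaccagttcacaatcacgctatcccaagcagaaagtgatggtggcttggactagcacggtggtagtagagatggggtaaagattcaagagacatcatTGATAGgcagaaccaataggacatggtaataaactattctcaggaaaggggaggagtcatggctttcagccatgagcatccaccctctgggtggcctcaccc
HDC: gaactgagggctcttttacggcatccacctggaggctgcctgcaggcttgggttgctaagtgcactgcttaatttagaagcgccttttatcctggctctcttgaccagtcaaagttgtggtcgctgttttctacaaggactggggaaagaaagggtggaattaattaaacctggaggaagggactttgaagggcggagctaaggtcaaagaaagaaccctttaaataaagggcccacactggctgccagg
FCER1A: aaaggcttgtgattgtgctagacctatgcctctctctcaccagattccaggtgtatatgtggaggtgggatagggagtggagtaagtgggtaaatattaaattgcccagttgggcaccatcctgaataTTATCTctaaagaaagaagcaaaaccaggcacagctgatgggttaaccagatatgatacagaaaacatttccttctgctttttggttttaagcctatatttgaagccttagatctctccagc
KLF1 held 2 such words, RHAG, ITGA2B and FCER1A 1 each, and HDC none. Among 27305 promoters of this length, taken whether or not the gene was expressed, 22.9% held at least 1. A promoter was at hand for only part of the expressed members, for example 17 of 35 erythroid genes. Of those, such a word stood before 12 of 17 erythroid genes (70.6%), 9 of 23 megakaryocyte genes (39.1%), 5 of 7 mast cell, basophil and eosinophil genes (71.4%) and 8 of 35 blood transcription factor genes (22.9%). The word CACCC, also counted on either strand, stood before 58.8%, 65.2%, 28.6% and 51.4% of the same groups in that order, against 53.7% of all promoters. A word match is a description of the letters and not a bound site, and HBG2 was not among the genes matched. The RefSeq start differs from the GENCODE gene end for all 5 genes. For HDC the printed bases lie inside the GENCODE gene span, which ends at 50266026, so they precede the RefSeq start only.

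Stem and progenitor genes were divided as well. KIT, the stem cell factor receptor, was at 397, 402 and 476 CPM, highest in WT 3, and CD34 was at 259, 268 and 284 CPM. CD164 averaged 539 CPM, MYB 345 CPM and CDK6 348 CPM. Per kb, KIT and CD164 led the list with overlapping ranges (76.4 and 74.7 CPM per kb on average). MECOM and MEIS1, factors of long-term stem cells, averaged 16.2 and 9.04 CPM. FLT3, HLF, PROM1 and AVP were at or under the floor, and SPINK2 and MLLT3 had no count.

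Of 51 blood transcription factor genes, 42 were expressed (82.4%, against 59.4% of all protein-coding genes), among them all 13 defining members. KLF1, the erythroid Krüppel-like factor, led the list per kb (219 ± 19.01 CPM per kb; 335, 388 and 335 CPM). GATA1 was at 276, 278 and 264 CPM and followed at 182 ± 5.04 CPM per kb. NFE2, GATA2 and LDB1 came next at 142, 131 and 111 CPM per kb. The ranges of these 5 neighbours did not overlap. GATA2 was at 597, 582 and 577 CPM, the largest share of counts in the list.

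Partners of GATA1 were present at lower levels per kb. LMO2 stood at 66.8, TAL1 at 42.4 and GFI1B, a repressor needed in both lineages, at 32.8 CPM per kb. The cofactor ZFPM1 stood at 2.36 CPM per kb (13.4, 14.7 and 15.2 CPM). The megakaryocytic ETS factors FLI1 and ERG averaged 183 and 143 CPM, and RUNX1 208 CPM, each highest in WT 3. SPI1, the myeloid and lymphoid factor PU.1, was at 64.8, 66.7 and 61.1 CPM. CEBPA, the granulocytic factor, was at 7.01, 6.98 and 4.77 CPM, the most variable expressed member (20.6% of the mean). Below 1 CPM on average were SOX6 (0.150), IRF8 (0.00677), IRF4 (0.0435), EBF1, HLF, GATA3 (0.665), BACH2 (0.658), BCL11B (0.356) and HOPX (0.558).

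Of the factors known to act in silencing gamma-globin in adult erythroid cells, KLF1 and MYB stood at 219 and 62.8 CPM per kb. BCL11A was at 16.7, 17.8 and 16.5 CPM (0.669 CPM per kb) and ZBTB7A at 12.96, 11.7 and 13.6 CPM (2.23 CPM per kb). The length used is the union of all annotated exons and can exceed that of the mRNA present. Values per kb may then be too low, for BCL11A among others. The fetal RNA-binding genes LIN28B and IGF2BP1 averaged 104 ± 6.88 and 389 ± 21.5 CPM, each highest in WT 3, and stood at 17.4 and 42.8 CPM per kb. Whether these levels bear on the globin pattern was not tested.

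Within families, levels differed between members. Of 6 GATA genes, GATA1, GATA2 and GATA5 (16.9 CPM) were expressed, GATA3 and GATA6 were below 1 CPM on average, and GATA4 had no count. Of 17 KLF genes, 12 were expressed (70.6%, against 59.4% of all protein-coding genes). KLF2 averaged 0.0135 CPM, and KLF4 and KLF14 had no count. MYC was at 623, 637 and 655 CPM and stood at 213 CPM per kb, against 0.235 for MYCN and 0.509 for MYCL. Of the AP-1 family, JUNB averaged 53.1 CPM, and the immediate early genes FOS (0.414), FOSB (0.342) and JUN (0.906) were below 1 CPM on average. All 3 RUNX genes were expressed, RUNX1 per kb above RUNX3 and RUNX2 without overlap.

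Of 41 cytokine receptor genes, 30 were expressed (73.2%, against 59.4% of all protein-coding genes). CSF2RB, the beta chain shared by the receptors for IL3, IL5 and GM-CSF, was at 805, 834 and 862 CPM (167 CPM per kb), and its alpha chains were far lower per kb. CSF2RA stood at 1.18 CPM per kb (4.67, 4.51 and 4.36 CPM), IL5RA at 0.496 (3.45, 3.07 and 3.30 CPM) and IL3RA at 0.370 (0.711, 0.564 and 0.626 CPM). CSF2RA, IL3RA, CRLF2 and CD99 are pseudoautosomal and were listed in 2 copies with equal counts, so their values are for 1 copy of each. With the copies summed, CSF2RA averaged 9.03 ± 0.325 CPM and IL3RA 1.27 ± 0.147 CPM, which brings IL3RA past the limit and the count to 31.

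IL2RG, the gamma chain shared by several interleukin receptors, was at 251, 241 and 263 CPM and second per kb (91.2). Its partners IL4R and IL15RA averaged 41.6 and 15.3 CPM, IL21R, IL9R and IL2RB between 3.47 and 6.92 CPM, and IL7R 0.0572 CPM. EPOR was at 46.0, 53.4 and 48.5 CPM (16.01 CPM per kb), and its range overlapped those of IFNAR2 and IFNGR1 beside it. The granulocyte receptor CSF3R averaged 2.65 CPM. LEPR, at 96.4 CPM, and the interferon receptor IFNAR1, at 150 CPM, were also expressed.

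Of the ligands of blood cell receptors, 6 are given, chosen after their values were seen. THPO, a growth factor of megakaryocytes, was at 7.80, 8.19 and 8.79 CPM. EPO and KITLG, the ligands of EPOR and KIT, averaged 0.0833 and 0.120 CPM. IL3, IL5 and CSF2, whose receptors share CSF2RB, had no count in any library.

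Receptor tyrosine kinases were expressed in 26 of 50 (52%), below the 59.4% of all protein-coding genes. KIT led per kb (76.4), followed by TIE1 (22.9), with ranges apart. TGF-beta and BMP receptors were expressed in 9 of 12 (75%), led by endoglin (ENG) at 103 CPM. BMPR2 ranged from 43.5 CPM in WT 1 to 61.0 CPM in WT 3. Of 35 G protein-coupled receptors of blood cells, 20 were expressed (57.1%), near the share of all protein-coding genes. The thrombin receptor F2R averaged 53.4 CPM, and CXCR4, the receptor that holds cells in bone marrow, was at 5.75, 6.04 and 6.60 CPM.

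Of 32 JAK-STAT genes, 31 were expressed (96.9%, against 59.4% of all protein-coding genes), with STAT4 (0.357 CPM) the exception. JAK2 was at 142, 143 and 161 CPM (24.1 ± 1.77 CPM per kb), highest in WT 3. JAK1 stood at 30.9, TYK2 at 22.3 and JAK3 at 21.0 CPM per kb. The ranges of JAK2 and TYK2 overlapped, as did those of TYK2 and JAK3. STAT5A was at 324, 323 and 320 CPM (56.0 CPM per kb), above STAT3 (36.5) and STAT5B (25.9 CPM per kb). PIM1, a kinase induced by STAT5, led the list at 142 CPM per kb. The feedback inhibitors SOCS3, CISH and SOCS2 averaged 96.7, 41.3 and 32.7 CPM, and SOCS1 1.77 CPM. The counts do not tell mutant from wild-type JAK2 transcripts.

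Of 31 genes that are recurrently mutated in myeloid neoplasms, 30 were expressed (96.8%, against 59.4% of all protein-coding genes). SETBP1 (0.0927 CPM) was not. CALR, an endoplasmic reticulum chaperone, led with 1268, 1247 and 1211 CPM (458 CPM per kb). NFE2, SRSF2, IDH2 and NRAS followed per kb at 142, 110, 94.7 and 77.3. TET2, the most variable of the list, averaged 42.9 ± 5.92 CPM. Expression of a gene says nothing here of whether it carries a mutation.

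At the cell surface, 18 of 26 integrin genes were expressed (69.2%, against 59.4% of all protein-coding genes). ITGA4, which pairs with ITGB1 or ITGB7, was at 1134, 1172 and 1287 CPM, and its range per kb (152 on average) overlapped that of ITGA2B. ITGB1 and ITGB2 averaged 334 and 352 CPM. The collagen receptor chain ITGA2 averaged 0.894 CPM. Of 25 tetraspanins, 22 were expressed (88%). CD63 and CD53 overlapped at the head (84.4 and 80.7 CPM per kb), and CD9, a common platelet marker, averaged 2.38 CPM.

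Surface antigens used to type or target leukemia were expressed in 17 of 29 (58.6%), near the 59.4% of all protein-coding genes. SPN (CD43) was at 665, 675 and 689 CPM and led per kb (91.6). CD36, the scavenger receptor of platelets and erythroid precursors, was at 354, 353 and 366 CPM. CD33 was at 96.6, 93.4 and 88.3 CPM, CD44 averaged 135 CPM and CD47 226 CPM. CD38 averaged 0.0558 CPM and CLEC12A 0.907 CPM. With pseudoautosomal copies summed, IL3RA (CD123) passed and the count became 18.

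Of MHC class I genes, 10 of 11 were expressed (90.9%, against 59.4% of all protein-coding genes). B2M was at 2597, 2626 and 2521 CPM, and HLA-B stood at 288 CPM per kb. Of class II genes, 8 of 12 were expressed (66.7%). CD74 averaged 67.6 CPM, HLA-DRA 5.38 CPM and their activator CIITA 5.56 CPM. Reads of these polymorphic genes were counted against the reference alleles only.

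The spread between the 3 libraries was small for most genes. Over 9836 genes of at least 10 CPM, the median coefficient of variation (CV) was 4.88%, and 56 genes (0.569%) exceeded 20%. The common biological CV, the spread beyond counting noise fitted across 15956 genes, was 0.0695. Any pair of libraries placed 99.5% to 99.9% of these genes within 1.5-fold, and their log2 levels correlated at 0.993 to 0.997 across genes, which share the same cells and are not independent. No library was a copy of another, since squared differences between pairs, averaged over genes, were 18.7 to 60.6 times those of sampling noise. Genes with the most counts weigh heavily in that mean. The median absolute log2 difference of a pair was 0.0519 to 0.104.

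Libraries differed in their mitochondrial counts and with transcript length. Mitochondrially encoded genes took 6.03%, 3.76% and 3.54% of counts in WT 1 to WT 3. Among genes of at least 10 CPM, WT 1 exceeded both other libraries by more than 1.5-fold in 18, 13 of them mitochondrially encoded and 3 mitochondrial pseudogenes, and was lower than both by that much in none. The 10 most variable genes of at least 10 CPM were AC011511.4 (28.7, 2.61 and 5.46 CPM), MT-ATP8, MT-ND6, MT-ND4L, MTATP6P1, MT-ND1, MTCO1P12, MT-ATP6, MTND2P28 and EIF3CL, all highest in WT 1. EIF3CL is a near-identical copy of EIF3C.

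WT 3 read short genes lower and long genes higher than WT 2. In the 2362 nuclear protein-coding genes of at least 10 CPM with the shortest transcripts, the median log2 difference of WT 3 from WT 2 was −0.10, and in the 2359 with the longest it was 0.10. The same medians for WT 1 against WT 2 were 0.01 and −0.02. The lower HBG2, PRG2 and LGALS1 and the higher TFRC, KIT and JAK2 of WT 3 moved with this pattern, and its part in them was not tested.

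**Figure D4:**
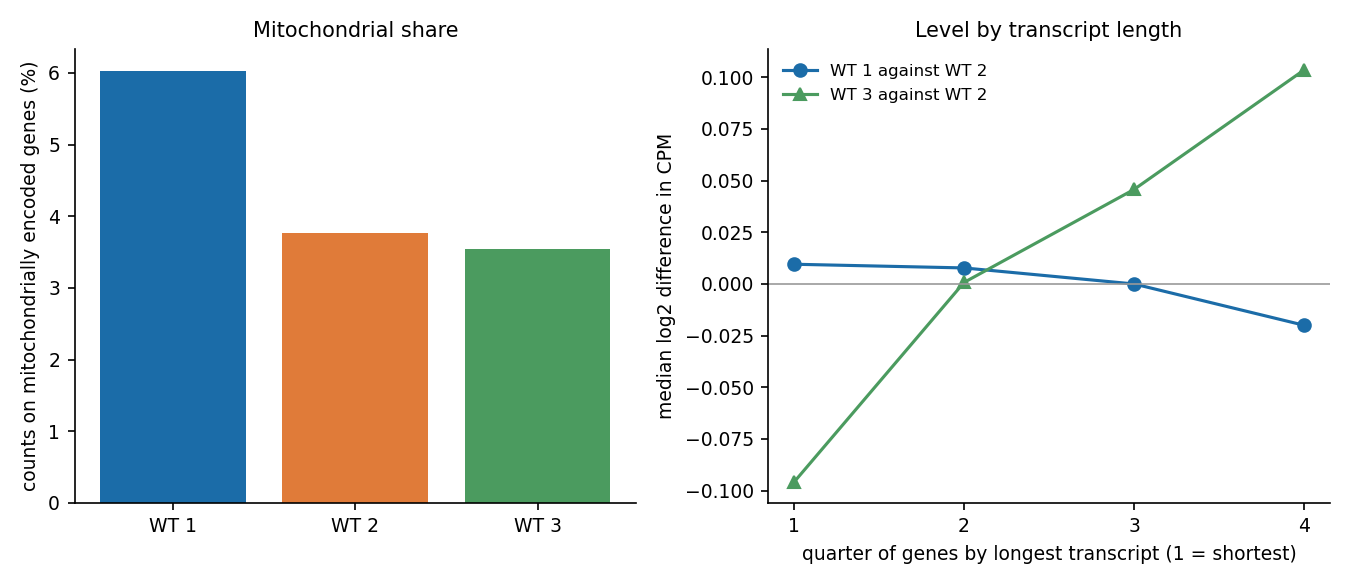
Left, percent of counts on mitochondrially encoded genes in each WT library. Right, median log2 difference in CPM from WT 2 by class of transcript length among nuclear protein-coding genes of at least 10 CPM; WT 3 runs from −0.10 in the shortest to 0.10 in the longest class, while WT 1 stays between −0.02 and 0.01.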

How the data were processed

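The WT libraries analysed here are 3 of the 9 in the series, all bulk RNA-seq. Values are expected counts from RSEM, deposited by the authors, which are estimated read counts that divide reads matching several genes and carry no normalization for depth or length. Submitters' processing notes name STAR 2.7.9a, Picard and RSEM on GRCh38. The annotation release, the RSEM version and the strand setting are not given in the sources used here. The paper's methods name a stranded mRNA kit with paired-end sequencing, whereas the labels name a SMARTER kit, so overlapping and antisense genes were treated as uncertain. The table held 60754 entries; 92 spike-in entries, all at 0, were left out.

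Expected counts were rounded and scaled by TMM over the 3 WT libraries (edgeR 4.0.16 in R 4.3.3), and the common biological CV was fitted with an intercept alone on genes kept by filterByExpr. Lengths per kb are unions of exons in GENCODE v29 on GRCh38, which placed 58587 genes (96.6%) by identifier without version. An overlap was sought from 25% of exon bases with another gene of at least 1 CPM on average. Not every such overlap is given above. Among those left out, 50.8% of the exon bases of IL2RG, 44.2% of IFNAR2, 43.0% of PRG2 and 36.7% of SRSF2 are overlapped by another gene. Scaling and dispersion steps were tested on simulated counts. No groups were compared, so no p value is given.

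Genes were named by rule: the 20 highest by CPM, the defining members, the 3 highest per kb and the most variable member of each of 41 lists, all members of lists of up to 12 genes, the 10 most variable genes of at least 10 CPM, DYRK1A and JAK2. Some genes that the rule names are not reported here. Other list members, IL3RA copies and overlapping partners were named after their values were seen. The libraries, lists and rules were chosen with earlier results of these data known.

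Alternatives were no TMM factor, DESeq2 1.42.0 size factors, TMM over 9 libraries, no filter, unrounded counts, no mitochondrial genes, protein-coding genes only, limits of 0.5 and 2 CPM or 1 library at 1 CPM, longest transcripts, and each library left out. Summing the 45 pseudoautosomal copies was added after seeing the data.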

Additional observations from a re-analysis of the deposited data

How the results depend on the processing

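No paired analysis was possible because no groups were compared and no result came from a test, so the replicate numbers that the labels share across groups pair nothing here. The counts of expressed genes kept within 1.5 times under every alternative: 12336 at a limit of 2 CPM, 14511 at 0.5 CPM, 11897 with protein-coding genes only and 13372 with pseudoautosomal copies summed, and 13458 to 13496 with a library left out. Expressed megakaryocyte genes ranged from 27 to 32 over the limits and stayed at 30 with any library left out; erythroid genes ranged from 35 to 36 and stayed at 35. The 10 highest genes took 5.60% of counts without mitochondrially encoded genes, against 7.12%, and 6.58% to 7.46% with a library left out. The mitochondrial share was 3.65% to 4.89% with a library left out, lowest without WT 1. The common biological CV was 0.0468 without WT 3 and 0.0870 without WT 2, against 0.0695. Of 354 named genes, 61 of 345 moved by more than 1 SD with protein-coding genes only and 94 of 343 without mitochondrially encoded genes, all by at most a factor of 1.05, because the library total shrinks. The mitochondrial share has no value without those genes. Leaving out WT 1 moved 15, and leaving out WT 2 or WT 3 moved 2 each. Dropping 1 of 3 libraries cannot shift a mean by 1 SD of those libraries, except through rescaling. These counts of moved genes therefore cannot show whether a level is stable. Leaving out WT 1 took AC011511.4 from 12.3 to 4.08 CPM, MT-ATP8 from 216 to 139 CPM and IGHM from 0.475 to 0.0227 CPM. Each of these shifts was less than 1 SD. No named gene moved under the other scalings, without the filter or unrounded. By the longest transcript, 36 of 41 lists kept their highest gene per kb; the exceptions were the stem, G protein-coupled receptor, ETS, integrin and immune ligand lists. Depth limits values under the floor of 3 counts, where a level cannot be told from 0.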

Other observations

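Secreted and granule genes of the line were led by products of other kinds than the classical platelet chemokines. Of 66 genes, 34 were expressed (51.5%), below the 59.4% of all protein-coding genes. Per kb the highest were galectin-1 (LGALS1, 276 CPM per kb; 322, 327 and 261 CPM), serglycin (SRGN, 215; 266, 262 and 260 CPM), the granule proteoglycan, and MIF (106). APP and TIMP3 averaged 631 and 444 CPM and TGFB1 258 CPM. The cytokine gene IL1B was at 128, 122 and 129 CPM, with no library apart, and VEGFA averaged 129 CPM. The fibrinogen chains FGA, FGB and FGG had no count.

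HOX genes were expressed in 9 of 11 members of the HOXA cluster (81.8%) and 7 of 10 of HOXB (70%). In HOXC 2 of 9 (22.2%) and in HOXD 1 of 9 (11.1%) were expressed, against 59.4% of all protein-coding genes. HOXB9 was the highest per kb, at 79.1, 81.1 and 82.5 CPM (31.3 CPM per kb), followed by HOXB4 (7.88), HOXA10 (6.38) and HOXA9 (6.01 CPM per kb). HOXD13, the single HOXD gene expressed, was at 5.52, 6.66 and 6.28 CPM. Among 30 cancer-testis and oncofetal genes, 9 were expressed (30%, below the 59.4% of all protein-coding genes). They were IGF2BP1, LIN28B, IGF2BP3 (75.3 CPM), IGF2BP2 (66.4), WT1 (26.9), DLK1 (18.6), TERT (5.41), MAGEA1 (2.77) and HMGA2 (1.24 CPM). PRAME averaged 0.222 CPM. Of a chosen list of 30 long noncoding RNAs, 28 were expressed, against 863 of all 16840 genes of this class (5.12%). In the list, SNHG29 led per kb (155), and the imprinted H19 and MEG3 averaged 25.8 and 36.9 CPM. MIR223HG, the host transcript of a myeloid microRNA, was at 144, 106 and 99.3 CPM, highest in WT 1.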
